A study of Mus musculus with 4 samples.

Results

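The Hox genes of the mouse lie in 4 clusters, and their accessibility was measured in hepatocyte nuclei before and after partial hepatectomy (PHx), an operation after which the remaining liver regrows. The members were the protein-coding genes of the GENCODE vM21 annotation whose symbol begins with Hoxa, Hoxb, Hoxc or Hoxd followed by a number. There were 39 of them among 21911 protein-coding genes. Hoxa held 11 genes on chromosome 6 (minus strand), Hoxb 10 on chromosome 11, Hoxc 9 on chromosome 15 and Hoxd 9 on chromosome 2. In mm10 (GRCm38) coordinates the clusters spanned chr6:52155590-52260880, chr11:96194316-96368256, chr15:102921103-103036852 and chr2:74668310-74765142.

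The study made single-nucleus ATAC-Seq (scATAC-Seq) libraries, in which the Tn5 transposase cuts open chromatin and a droplet barcode names the nucleus. The groups were undamaged liver (PHx 0 h) and liver at 48, 72 and 96 h after PHx, with 1 library each. According to the labels the mice were 10 to 12 weeks old and received a normal diet, and the methods describe them as male C57BL/6J and give a somewhat younger age. All groups shared the isolation of hepatocytes by 2-step collagenase perfusion, and the libraries of 0 and 48 h came from 1 preparation each.

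Hox genes encode homeodomain transcription factors that give cells their position along the head-to-tail axis. Their order on the chromosome follows the order in which they are used in the embryo, from paralog group 1, active towards the head, to group 13, active towards the tail and in the limb tips. In tissues that do not use them the clusters are a classical target of Polycomb repression, which packs them in H3K27me3-marked chromatin, while Trithorax proteins keep them active. Their products often bind DNA together with the cofactors Pbx and Meis.

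Barcodes below 1000 counts were left out, and the others, taken as nuclei, numbered 3977, 3892, 4256 and 3224 at 0, 48, 72 and 96 h. Their total counts decreased in that order, from 136582768 to 62000846, 24724883 and 14935507. Peaks had been called in each library on its own, and the 119839, 158652, 164113 and 77580 peaks covered 153.6, 179.0, 141.2 and 60.9 Mb. A barcode sequence found in another library was carried by part of the nuclei, and 3100, 3655, 4131 and 3101 nuclei had a barcode of their own. All 10 hepatocyte markers had a peak in every library, and their summed level was 4141 to 5918 CPM, the count scaled to 1000000 counts in peaks. With 1 library per time point there was no test over time, and time and library cannot be told apart. Intervals are exact 95% Poisson intervals on counts divided by 2, since both ends of a fragment count, and cover counting error only.

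Counts in called Hox peaks were higher at 48 and 72 h than at 0 h, and at 96 h they were again near the 0 h level. Peaks were called in each library on its own, and in Hox regions called at nearly the same length the difference was 1.16-fold at 48 h and 1.49-fold at 72 h. Peaks over the gene bodies and the 2000 bp upstream held 17263, 22846, 11089 and 2333 counts at 0, 48, 72 and 96 h, with a peak over several genes counted once. Scaled to the library, these were 126 CPM (124 to 129), 368 CPM (362 to 375), 448 CPM (437 to 460) and 156 CPM (147 to 165). The libraries of 48 and 72 h lay far above the other 2, and no interval overlapped another. Relative to 0 h, the level was 2.92-fold (2.83 to 3.0) at 48 h, 3.55-fold (3.43 to 3.67) at 72 h and 1.24-fold (1.16 to 1.31) at 96 h.

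The counts in called peaks were higher at 48 and 72 h for each of the 4 clusters. In regions of near-equal length this held with smaller log2 ratios (0.26 to 0.36 at 48 h and 0.54 to 0.76 at 72 h), except for Hoxc at 48 h, where the ratio was -0.17 instead of 1.87. These ratios rest on few regions, 8 in all at 48 h, of which Hoxb and Hoxc had 1 each. Hoxa lay at 50.3, 136, 137 and 47.7 CPM at 0, 48, 72 and 96 h. Hoxb, the lowest cluster in every library, lay at 10.6, 39.8, 61.3 and 16.3 CPM. Hoxc lay at 22.9, 83.9, 93.5 and 23.6 CPM. Hoxd lay at 42.7, 108, 157 and 68.6 CPM and was the highest cluster at 72 and 96 h. At 72 h the ratio to 0 h was largest for Hoxb at 5.80-fold (5.24 to 6.44) and smallest for Hoxa at 2.73-fold (2.57 to 2.89). At 96 h Hoxb at 1.54-fold (1.27 to 1.88) and Hoxd at 1.61-fold (1.46 to 1.77) lay above the 0 h level by more than counting error. The intervals of Hoxa, 0.948-fold (0.848 to 1.06), and Hoxc, 1.03-fold (0.876 to 1.2), included no difference.

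**Figure D1:**
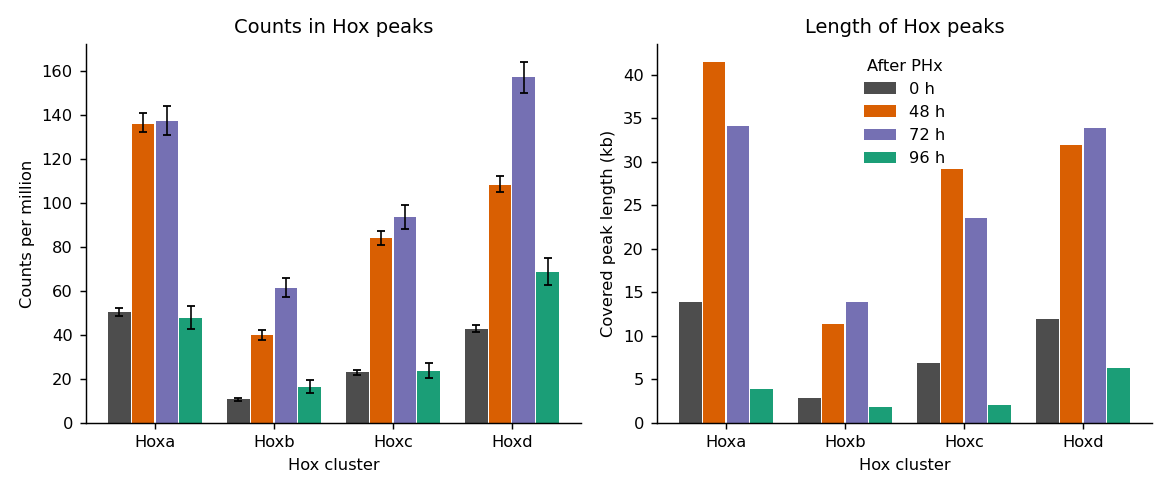
Left, CPM in peaks over the Hox windows for each cluster and library, 1 library per bar, with exact 95% Poisson intervals as error bars. Right, the length of those peaks in kb. Every cluster is higher at 48 and 72 h than at 0 h in both panels, and at 96 h every cluster has the shortest covered length.

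The number and length of the peaks differed in the same way. At 0, 48, 72 and 96 h the Hox windows held 52, 113, 116 and 32 peaks, which covered 35.6, 114, 106 and 14 kb. Covered length was thus 3.21-fold, 2.97-fold and 0.393-fold that of 0 h, whereas all peaks of the library covered 1.17-fold, 0.919-fold and 0.396-fold. Per covered kb the Hox peaks held 3.55, 3.23, 4.25 and 11.2 CPM, and all peaks 6.51, 5.59, 7.08 and 16.4 CPM. The Hox peaks were therefore less dense than the average peak in every library, at 54.6%, 57.9%, 60.0% and 68.1% of its value. Their density was 0.910-fold that of 0 h at 48 h and 1.19-fold at 72 h, so the difference in counts went with the length called as peak.

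Seen along the chromosome, peaks covered 14%, 42.5%, 34.1% and 3.97% of the Hoxa cluster at 0, 48, 72 and 96 h. The values were 3.69%, 10.7%, 12.0% and 2.27% for Hoxb, which contains the long stretch between Hoxb13 and Hoxb9. For Hoxc they were 6.56%, 28.2%, 24.0% and 2.09%, and for Hoxd 12.5%, 34.3%, 35.6% and 6.55%. Flanking DNA of equal length was compared in the same way. The flank beyond Hoxb1 was covered to 1.45%, 1.53%, 1.93% and 0.547%, and the flank beyond Hoxd1 to 5.95%, 6.37%, 4.50% and 1.64%. The flank beyond Hoxa13, which carries Evx1, was covered to 5.25%, 12.2%, 14.3% and 1.21%, and that beyond Hoxd13, which carries Evx2, to 4.56%, 9.66%, 12.4% and 2.80%. The flank beyond Hoxb13 was covered to 8.28%, 10.3%, 8.92% and 3.02%, that beyond Hoxc4 to 13%, 18.6%, 13% and 5.91%, and that beyond Hoxc13 to 0.00432%, 2.31%, 1.28% and 0%. The remaining flank of Hoxa was covered to 3.52%, 4.44%, 3.55% and 0.913%. All 8 flanks were thus covered more at 48 h than at 0 h and least at 96 h, by amounts that differed widely between them.

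Peaks of the 4 libraries that touched were merged, which gave 125 regions over the Hox windows. Of these, 39 (31.2%) had a peak at 48 and 72 h and at no other time, against 7.75% of all merged regions. A peak in every library was found for 32 (25.6%), against 31.9% of all regions. Regions called at 0, 48 and 72 h numbered 18, or 14.4%, close to the 14.6% of all regions. A further 17 regions were called at 48 h alone and 18 at 72 h alone, 13.6% and 14.4%, against 17% and 18.4%. The share that stood apart was therefore that of regions called at 48 and 72 h together.

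**Figure D2:**
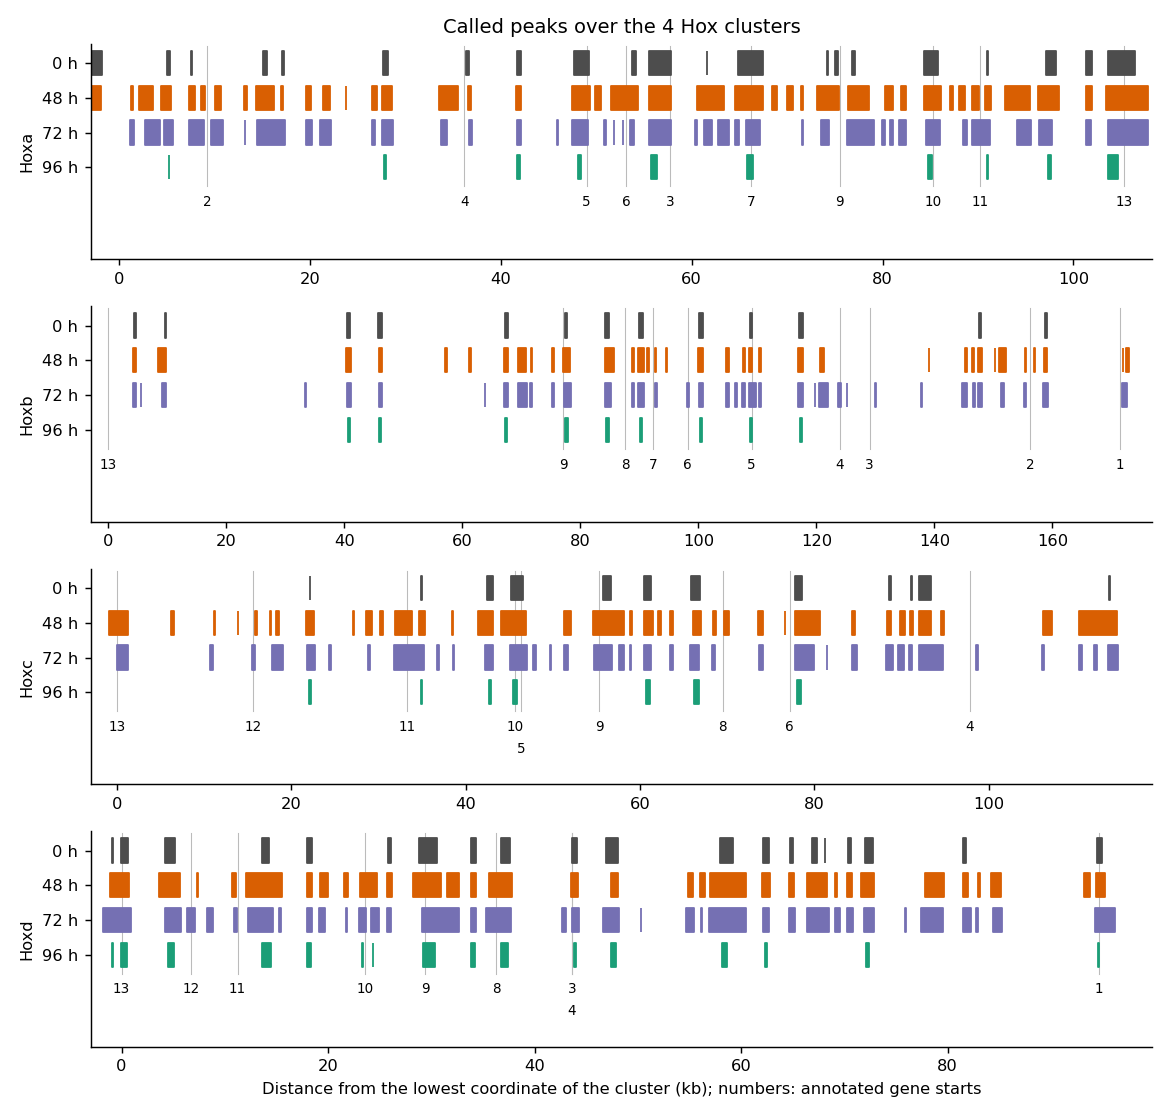
Called peaks (boxes) over the Hoxa, Hoxb, Hoxc and Hoxd clusters in each library, drawn to scale against the distance in kb from the lowest coordinate of the cluster. Vertical lines mark annotated gene starts by paralog number, with 1 gene not marked. At 48 and 72 h peaks cover 34.1% to 42.5% of Hoxa and 34.3% to 35.6% of Hoxd, and at 96 h at most 6.55% of any cluster.

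The share of Hox transcription start sites (TSS) that lay in a peak was lowest at 96 h and came nearest to that of all genes at 72 h. The annotated TSS lay in a peak for 11, 21, 23 and 5 of the 39 members at 0, 48, 72 and 96 h, or 28.2%, 53.8%, 59.0% and 12.8%. Over all protein-coding genes the shares were 59.4%, 62.8%, 62% and 54.2%. The starts of 5 members were in a peak in every library, those of Hoxa7, Hoxb5, Hoxc10, Hoxd9 and Hoxd13. This pattern held for 54.0% of all genes. The starts of Hoxa3, Hoxa5, Hoxa10, Hoxa13, Hoxc5 and Hoxd1 were in a peak at 0, 48 and 72 h, a pattern of 4.22% of all genes. A start in a peak at 48 and 72 h only was found for members such as Hoxc9, Hoxc11, Hoxd3, Hoxd4, Hoxd8 and Hoxd10, a pattern of 2.21% of all genes. Hoxa6, Hoxb9 and Hoxc13 had it at 48 h only (1.38% of all genes), and Hoxa11, Hoxb4, Hoxb6, Hoxc12 and Hoxd12 at 72 h only (1.32%). For the other 13 members the start was in no peak, as for 35.4% of all genes. A peak within 500 bp of the start was found for 18, 31, 31 and 13 members, or 46.2%, 79.5%, 79.5% and 33.3%, against 63.0%, 67.4%, 67.2% and 58.7% of all genes. By this wider rule the share of members was above that of all genes at 48 and 72 h and below it at 0 and 96 h.

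The 250 bases upstream of the RefSeq start (GRCm38.p6) were compared between members, since these promoters fell into different patterns of peaks. A promoter entry was found for 22 members and 16522 genes. For 17 of the 22 the RefSeq start lay within 100 bp of the annotated one. Peaks were scored here over the RefSeq start, so some members had another pattern than above. The RefSeq start of Hoxd4 was in no peak, and those of Hoxa7 and Hoxd13 were in a peak at 48 and 72 h only. An example of each of 4 patterns is shown 5′ to 3′ on the strand of the gene. Capitals mark the motifs searched on both strands, some of which overlap. These were GGGCGG, the GC box bound by Sp factors, and CCAAT, the box bound by nuclear factor Y. The others were TATAAA, known as the TATA box, then TAATTA, the core of many homeodomain sites, and last TGATNNAT, a composite site of Pbx and Hox. Hoxa13 (minus strand, chr6:52260881-52261130), which acts in the limb tips, had its start in a peak at 0, 48 and 72 h. Hoxd10 (plus strand, chr2:74691641-74691890), a gene of hindlimb motor neurons, had it at 48 and 72 h. Hoxd12 (plus strand, chr2:74674763-74675012), a digit gene, had it at 72 h, and Hoxa2 (minus strand, chr6:52164832-52165081), which patterns the second pharyngeal arch, in no library.
Hoxa13: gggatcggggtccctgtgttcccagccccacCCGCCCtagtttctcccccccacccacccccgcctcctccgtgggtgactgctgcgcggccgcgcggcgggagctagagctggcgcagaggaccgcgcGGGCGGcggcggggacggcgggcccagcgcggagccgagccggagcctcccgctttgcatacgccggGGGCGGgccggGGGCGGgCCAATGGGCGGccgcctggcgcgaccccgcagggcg
Hoxd10: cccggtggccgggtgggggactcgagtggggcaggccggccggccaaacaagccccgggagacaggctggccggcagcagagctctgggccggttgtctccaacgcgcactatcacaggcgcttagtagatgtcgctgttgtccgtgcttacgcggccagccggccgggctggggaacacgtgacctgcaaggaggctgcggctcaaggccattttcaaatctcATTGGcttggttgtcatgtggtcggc
Hoxd12: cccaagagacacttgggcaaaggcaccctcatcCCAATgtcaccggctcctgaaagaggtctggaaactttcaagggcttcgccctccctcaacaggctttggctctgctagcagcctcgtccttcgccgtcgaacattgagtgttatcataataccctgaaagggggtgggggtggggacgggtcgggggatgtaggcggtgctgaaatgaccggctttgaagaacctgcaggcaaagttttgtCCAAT
Hoxa2: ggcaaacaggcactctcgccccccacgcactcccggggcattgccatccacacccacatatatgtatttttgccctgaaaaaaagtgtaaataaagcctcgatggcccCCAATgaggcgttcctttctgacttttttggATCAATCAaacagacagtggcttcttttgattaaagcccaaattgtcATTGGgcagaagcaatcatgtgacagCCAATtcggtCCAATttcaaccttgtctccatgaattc

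The Hoxa13 promoter held 35 CG dinucleotides and 5 GC boxes. The Hoxd10 promoter held 20 CG and the Hoxd12 promoter 10, each without a GC box. The Hoxa2 promoter held 6 CG, no GC box and 4 CCAAT boxes. Across the matched members, the median number of CG was 4.50 for the 6 promoters whose RefSeq start was in no peak. It was 21.0 for the 6 whose RefSeq start was in a peak in 3 libraries. It was 13 for the 5 with a peak in 1 library, 13.5 for the 4 with a peak in 2, and 13 for the 1 with a peak in all 4. The promoters without a peak included Hoxd4 and Hoxa9, with 3 CG each. Their RefSeq starts lay 10049 and 3719 bp from the annotated ones. The medians overlie a wide spread, since promoters without a peak held up to 12 CG and those with a peak in 1, 2 or 3 libraries as few as 8, 6 and 7. The median over all genes was 10.0 and over the members 12.0. A GC box was found in 40.9% of member promoters and 44.4% of all, a CCAAT box in 59.1% and 36.1%, and a TATA box in 13.6% and 11.9%. TAATTA was found in 4.55% and 4.39%, and TGATNNAT in 13.6% and 6.69%.

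Levels of single genes were compared as CPM per kb of window, since Hoxa3, Hoxc5, Hoxd3 and Hoxd4 have annotated bodies that span their neighbours and share peaks with them. At 0 h, 32 of the 39 members had a peak, against 76.7% of all genes, and the median member lay at the 37.0th percentile of all genes. Only 6 members lay above the median gene at 0 h, where Hoxd9 was highest with 1.43 CPM per kb against a median of 0.649 for all genes. At 48 and 72 h, 37 and 38 members (94.9% and 97.4%) had a peak, against 79.6% and 79.9% of all genes. Of the members, 27 and 30 lay above the median gene, and the median percentile was 61.3 and 69.5. At 96 h, 25 members (64.1%) had a peak, against 72.9% of all genes. Of the members, 11 lay above the median gene, and the median percentile was 38.4. Hoxd9 was the highest member in every library, with 3.37, 4.16 and 2.70 CPM per kb at 48, 72 and 96 h. Hoxb13, which acts at the tail end and in the prostate, had no peak in any library. A gene without a peak is not at a true zero, as counts exist for called peaks alone, so no fold was computed against it.

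**Figure D3:**
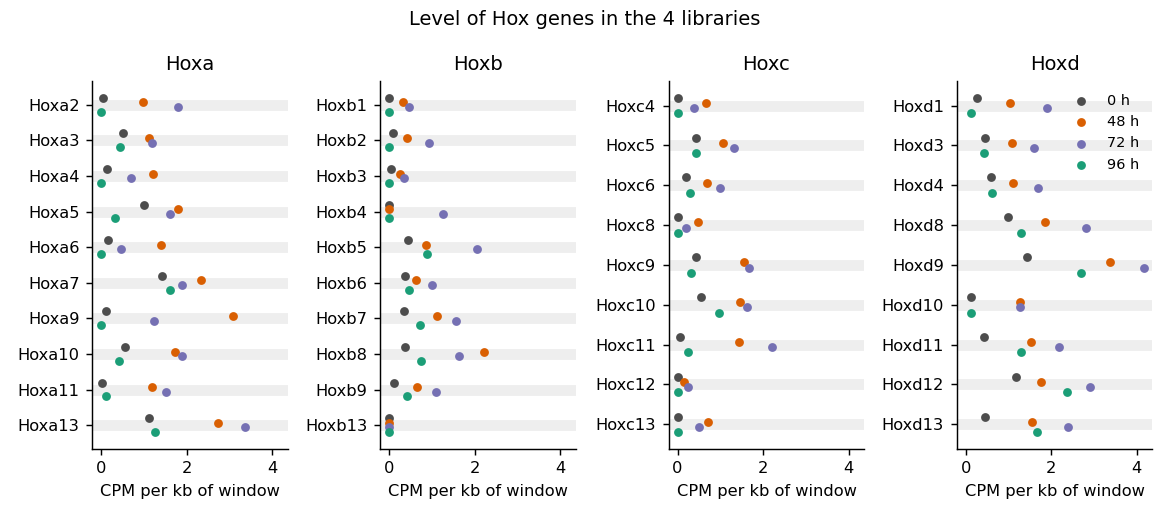
CPM per kb of window (gene body plus 2000 bp upstream) of 38 of the 39 members, 1 point per library. Points at 0 are genes without a called peak. Hoxd9 is the rightmost point of every library, and Hoxb13 stays at 0.

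By counts in called peaks, most members were at least 2-fold higher at 48 and 72 h, whereas per covered kb of peak 6 of 37 and 13 of 38 were. The 6 and 13 include the 5 and 6 members without a peak at 0 h, which had no covered kb there. Among the 37 members with at least 20 counts in 1 of the 2 libraries, 30 were at least 2-fold higher at 48 h than at 0 h and 0 were lower, against 11.1% and 2.33% of all genes tested. Of the 30, 5 had no peak at 0 h. At 72 h, 36 of 38 were higher, 6 of them without a peak at 0 h, and 0 were lower, against 16.4% and 6.48%. The median log2 ratio of the 32 members with a peak in both libraries was 1.82 at 48 h and 2.15 at 72 h, against -0.01 and 0.02 over all genes.

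The largest ratios at 48 h belonged to members with narrow peaks at 0 h. Hoxa11 (chr6:52242106-52245810), which shapes kidney and forearm, lay at 0.117, 6.71, 8.66 and 0.670 CPM at 0, 48, 72 and 96 h. Its 48 h level was 57.3-fold (28.5 to 134) that of 0 h, where it rested on 16 counts. Hoxc4 (chr15:103018934-103036852) lay at 0.234, 13.2 and 7.56 CPM at 0, 48 and 72 h, and was 56.2-fold (34.2 to 99.2) higher at 48 h. Hoxa2 lay at 0.146, 4.35 and 7.89 CPM and was 29.7-fold (15.7 to 63.4) higher at 48 h. Neither Hoxc4 nor Hoxa2 had a peak at 96 h. At 0 h these 3 genes had 75 to 127 bp of peak, and at 48 h 1567 to 5484 bp.

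The smallest ratios at 48 h were those of Hoxd12, Hoxa7 and Hoxb6. Hoxd12 lay at 5.54, 8.29, 13.6 and 11.2 CPM at 0, 48, 72 and 96 h, with a log2 ratio of 0.58 at 48 h. Hoxa7 (chr6:52214491-52221854), a trunk gene, lay at 13.3, 21.8, 17.6 and 15.1 CPM, with a log2 ratio of 0.71. Hoxb6 lay at 4.08, 6.94, 11 and 5.16 CPM, with a log2 ratio of 0.77. In each of the 3 the 48 h interval lay above that of 0 h.

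The genes that led each cluster by level at 0 h, and those at its lower end, were as follows. In Hoxa, Hoxa7 was followed by Hoxa13, at 5.78, 14.2, 17.5 and 6.49 CPM at 0, 48, 72 and 96 h. In Hoxb, Hoxb5 was highest per kb, at 2.12, 4.15, 9.83 and 4.22 CPM, followed by Hoxb6. Hoxb1, Hoxb4 and Hoxb13 had no peak at 0 h, and of these Hoxb1 had 1.44 and 2.02 CPM at 48 and 72 h and Hoxb4, known from blood stem cells, 6.71 CPM at 72 h alone.

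In Hoxc, Hoxc10 was highest per kb, at 3.92, 10.3, 11.6 and 6.83 CPM, followed by Hoxc9, a gene of the thoracic spinal cord, at 4.71, 16.7, 17.8 and 3.41 CPM. Hoxc8, Hoxc12 and Hoxc13 had no peak at 0 or 96 h, and Hoxc13, which acts in hair and nail, lay at 6.94 and 4.85 CPM at 48 and 72 h. In Hoxd, Hoxd9 (chr2:74697727-74700208) lay at 6.41, 15.1, 18.6 and 12.1 CPM, followed by Hoxd12. Hoxd10 was lowest, at 0.622, 6.53, 6.55 and 0.603 CPM. Every Hoxd gene had a peak in every library, whereas the other clusters each held genes without a peak at 0 h.

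Position within the clusters was compared by paralog group. Groups 1 to 4, used towards the head, lay at 44.3, 133, 169 and 37.2 CPM over 12 members. Groups 5 to 8 lay at 54.7, 127, 141 and 59.2 CPM over 11 members. Groups 9 to 13 lay at 41.6, 164, 178 and 71.7 CPM over 16 members. At 96 h the level of groups 1 to 4 (32.9 to 41.8) lay below that of 0 h (42.8 to 45.9), and that of groups 9 to 13 (65.8 to 78) above it (40.1 to 43.2). The start was in a peak at 96 h for 0 of the 12 members of groups 1 to 4, 2 of the 11 of groups 5 to 8 and 3 of the 16 of groups 9 to 13, against 54.2% of all genes. The groups were not independent, since Hoxa3 shared peaks with Hoxa5 and Hoxa6, and Hoxc5 with Hoxc9 and Hoxc10.

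At 96 h members lay on both sides of the 0 h level. Of 31 members with enough counts, 7 were counted as at least 2-fold higher and 9 as at least 2-fold lower than at 0 h, against 6.98% and 13.3% of all genes. Scaled by regions with a peak in every library, 4 were higher, and with binarised counts also 4, against 5.36% and 4.72% of all genes. Of the 9, 7 had no peak at 96 h and were counted from 0 counts there, so that 2 with a peak in both libraries remained. Among the 7 were 3 posterior Hoxd genes. Hoxd13 (chr2:74668310-74671599), a digit gene, lay at 2.35, 8.23, 12.7 and 8.84 CPM at 0, 48, 72 and 96 h, which at 96 h was 3.76-fold (2.79 to 5.06). Hoxd11 lay at 3.93, 14.5, 20.6 and 12.3 CPM, 3.13-fold (2.45 to 3.99) at 96 h. Hoxd12 stood at 2.02-fold (1.58 to 2.58).

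The others higher at 96 h were Hoxc11, Hoxb9, Hoxb7 and Hoxb8. Hoxc11, a hindlimb gene, lay at 0.256, 7.53, 11.7 and 1.34 CPM, and Hoxb9, which acts on the ribs, at 0.725, 4.66, 7.81 and 2.95 CPM. Hoxb7 and Hoxb8 shared 1 peak and were both 2.01-fold (1.33 to 3.06). The 7 members without a peak at 96 h among those counted as lower were Hoxa2, Hoxa4, Hoxa6, Hoxa9, Hoxb2, Hoxb3 and Hoxc4. Counts exist for called peaks alone, so the level of these 7 at 96 h is not known. A 2-fold lower level was therefore not shown for any of them. Counting error alone allows up to 0.494 CPM for 0 counts at this depth. This lies above the 0 h level of Hoxa2 (0.146 CPM), Hoxc4 (0.234 CPM) and Hoxb2 (0.483 CPM). It is not 2-fold below that of Hoxa4 (0.556 CPM) and Hoxa6 (0.747 CPM). The 2 lower members with a peak in both libraries were Hoxa5 and Hoxd1. Hoxa5, a lung gene, lay at 4.90, 8.71, 7.81 and 1.61 CPM, and Hoxd1 at 1.09, 4.32, 7.89 and 0.536 CPM. Hoxa5 at 96 h was 0.328-fold (0.168 to 0.582) that of 0 h, and Hoxd1 was 0.491-fold (0.131 to 1.32), which includes no difference. Hoxc9, the third smallest ratio, was 0.725-fold (0.475 to 1.1).

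Since counts sum over called peaks, the ratio of counts was set beside that of covered length. The median log2 ratio of covered length was 1.64, 1.56 and -1.09 at 48, 72 and 96 h for members with a peak in both libraries, against 0.16, -0.13 and -1.09 for all genes. Across members the count and length ratios ranked alike, with rho of 0.94 and 0.88 over 32 members and 0.92 over 24, given as a description because both come from the same peaks. Per covered kb, 6 members were at least 2-fold higher at 48 h and 13 at 72 h, against 30 and 36 by counts and 3.39% and 5.75% of all genes. These include the 5 and 6 members without a peak at 0 h, which had no covered kb there. Of all genes, 3.16% and 3.23% had no peak at 0 h. Among members with a peak in both libraries, Hoxa11 alone passed at 48 h. At 96 h, 21 were higher and 7 lower per covered kb, where 68.7% of all genes were higher and 5.12% lower. The 7 lower were the members without a peak at 96 h, which had no covered kb there.

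Regions whose covered length at the 2 times differed by less than 1.2-fold were compared on their own. At 48 h, 8 such Hox regions together were 1.16-fold (1.09 to 1.23) the 0 h level, and 0 of them passed 2-fold in either direction, against 0.175% (higher) and 0.135% (lower) of all such regions. Their median log2 ratio was 0.31, against -0.01 over 50938 regions. At 72 h, 11 regions together were 1.49-fold (1.38 to 1.61), and 4 were at least 2-fold higher and 0 lower, against 6.88% and 0.137% of all. Their median was 0.54, against 0.33. At 96 h a single region in Hoxa3 remained, at 4.15-fold (2.66 to 6.44), where 74.3% of all such regions were at least 2-fold higher and 0.0447% lower. In regions called at nearly the same length, the difference was thus smaller than over all Hox peaks at 48 and 72 h.

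**Figure D4:**
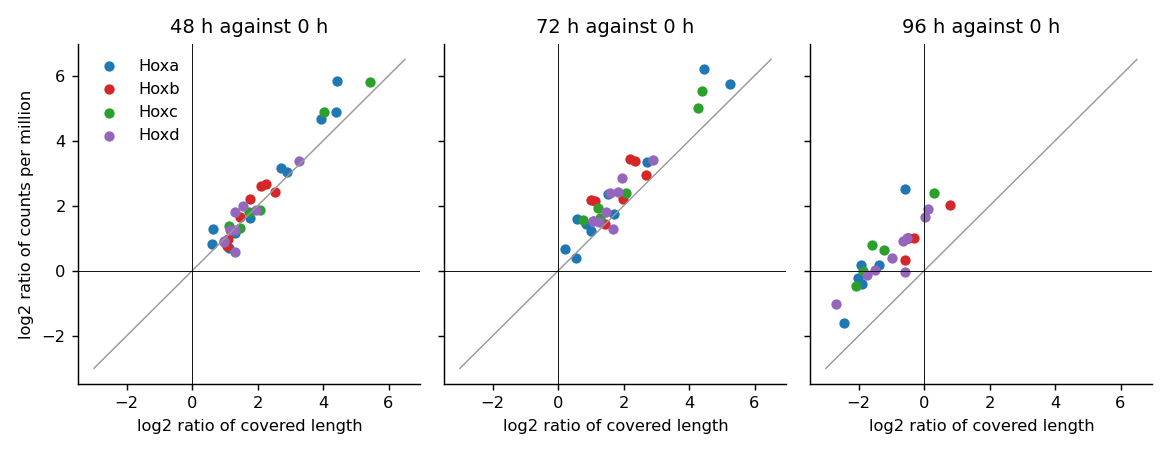
The log2 ratio of CPM to 0 h against the log2 ratio of covered peak length, 1 point per Hox gene with a peak in both libraries, coloured by cluster, for 48, 72 and 96 h. The grey line marks equal ratios. At 48 h the points lie along the line, with medians of 1.82 for counts and 1.64 for length. At 72 h (2.15 and 1.56) and at 96 h (0.37 and -1.09) most lie above it.

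Hepatocyte-like nuclei held 87.4%, 98.1%, 97.1% and 98.3% of the Hox counts at 0, 48, 72 and 96 h, near their share of all counts (90.3%, 98.3%, 97.6% and 99.1%). In these nuclei alone the Hox level was 122, 367, 446 and 155 CPM, so the order of the time points was the same without the other nuclei. In them, 31, 36 and 6 members were at least 2-fold higher at 48, 72 and 96 h and 0, 0 and 8 lower, against 11.5%, 16.6% and 7.33% of all genes higher and 2.38%, 6.66% and 13.4% lower. Of the nuclei left out here at 0 h, 1209 were those of cluster 5, which held 10.1% of the Hox counts at 151 CPM. That cluster was left out for its depth alone, at 0.328 against a limit of 0.333. Its hepatocyte markers were not low, at a summed 5443 CPM at 0 h against 4914 CPM over all nuclei of that library. Levels of nonparenchymal markers also differed between the libraries. The summed level of 10 stellate and mesenchymal markers was 111, 203, 262 and 187 CPM, that of 10 endothelial markers 239, 284, 352 and 219 CPM, and that of 10 myeloid markers 168, 235, 212 and 104 CPM. That of 5 mesothelial markers was 67.1, 101, 134 and 97.3 CPM. That of 8 lymphocyte markers was 4.88, 52.5, 7.81 and 5.89 CPM, and that of 7 cholangiocyte markers was 125, 104, 105 and 101 CPM, highest at 0 h. Of the defining genes, Dcn had a peak at 72 h only, Des at 48 h only, and Clec4f and Adgre1 of Kupffer cells at 48 and 72 h only. The part of called length in these levels was not tested. With the barcodes found in another library left out, the Hox level was 128, 372, 449 and 159 CPM.

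Genes whose products act with or upon Hox genes were mostly near their 0 h level. Of 9 genes of Pbx, Meis and Pknox cofactors, 0 were at least 2-fold from 0 h at 48 or 72 h, and Pbx2 was lower at 96 h (log2 ratio -1.46). Of 19 Polycomb genes, 0 were higher at any time and 2, 1 and 2 were lower at 48, 72 and 96 h. Ring1, a ubiquitin ligase of the complex, had log2 ratios of -1.72, -2.12 and -1.40, and Cbx8 of -1.08 at 48 h. Of 7 Trithorax and H3K27 demethylase genes, Kdm6b alone was lower at each time, with -1.15, -1.15 and -1.26. The background for these counts is the share of all genes given above.

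Other homeobox genes near or akin to the clusters were often higher at 48 and 72 h. Evx2, next to Hoxd13, lay at 3.87, 16.2, 20.6 and 5.42 CPM at 0, 48, 72 and 96 h, and Evx1, next to Hoxa13, at 6.90 and 13.9 CPM at 48 and 72 h with no peak at 0 or 96 h. Of the 6 Cdx and ParaHox genes, 4 were counted as at least 2-fold higher at 48 h and 5 at 72 h, against 11.1% and 16.4% of all genes. The 4 at 48 h had no peak at 0 h, and no fold is given for them. Cdx2, a regulator of the intestine that also drives posterior Hox genes, had no peak at 0 and 96 h and 32.2 and 14.2 CPM at 48 and 72 h. Cdx1, Gsx2 and Pdx1 had the same pattern of peaks, and Gsx1 reached a log2 ratio of 1.62 at 72 h. At 96 h only Cdx4 and Gsx1 of this list could be compared, and Cdx4 was lower (log2 ratio -1.78). Of 8 genes that flank the clusters and are no homeobox genes, 0 were higher at 48 h and only Ttll6 at 72 h, with 1.09. At 96 h 0 of the flanking genes were at least 2-fold from 0 h.

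Hox accessibility was also compared between classes of nuclei within each library, where all nuclei share the same peaks. Clusters of nuclei were built without the chromosomes of the Hox clusters. Clusters 7 and 8 had low hepatocyte markers, with a median log2 level of -2.19 and -2.72 against the rest. Cluster 7 held 211, 144, 197 and 59 nuclei at 0, 48, 72 and 96 h, and 5 of 10 genes of the endothelial list exceeded the rest by 2-fold or more. Cluster 8 held 88, 77, 87 and 24 nuclei, and this was true of 3 of 10 endothelial and 3 of 10 myeloid genes. Both stayed unnamed, and the nuclei of cluster 7 were shallow, with 0.221 of the median count of their library.

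Scaled to all counts, cluster 7 had a higher Hox level than hepatocyte-like nuclei in Hoxa and Hoxb. In Hoxd its level was lower, on few counts. Its level over all members was 330 (279 to 389), 492 (403 to 595), 641 (527 to 772) and 289 (147 to 511) CPM, on 289, 213, 221 and 23 counts. The mean log2 ratio was 0.82 ± 0.46 (SD, n = 4 libraries), higher in 4 of 4 (two-sided exact sign-flip permutation test, p = 0.13, the smallest that 4 libraries allow). By cluster, it was 1.31 ± 0.64 for Hoxa, 1.89 ± 0.70 for Hoxb, -0.05 ± 0.93 for Hoxc and -0.49 ± 0.03 for Hoxd. Hoxa and Hoxb were higher and Hoxd lower in 4 of 4 libraries, and Hoxc was higher in 2 and lower in 2. In Hoxd, cluster 7 held 26, 33, 38 and 4 counts at 0, 48, 72 and 96 h. Its intervals there were 15.8 to 50.8, 44.0 to 123, 66.3 to 172 and 6.09 to 182 CPM. Each included the hepatocyte-like level, which was 41.5, 109, 158 and 68.7 CPM. In Hoxa the level of cluster 7 was 233, 280, 272 and 88.0 CPM at 0, 48, 72 and 96 h, against 48.4, 135, 135 and 47.4 CPM in hepatocyte-like nuclei.

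Single genes were tested with edgeR's quasi-likelihood test with library as a block and Benjamini-Hochberg adjustment over all genes. Of 32 members tested, 3 were higher in cluster 7 and 0 were lower, against 6.43% and 14.6% of 16471 genes. The share of higher members, 3 of 32, was thus near the background. The log2 fold was positive for 14 of the 32, and its median was -0.27, against -0.08 over all genes. The unadjusted p was under 0.05 for 9 members. DESeq2 called 6 higher and 0 lower, against 994 and 2080 of 16471 genes. Hoxa3 (chr6:52169062-52213336), which patterns the pharyngeal pouches, lay at 186, 180, 157 and 50.3 CPM in cluster 7 at 0, 48, 72 and 96 h. In hepatocyte-like nuclei it lay at 22.5, 51.6, 52.8 and 20.3 CPM, below cluster 7 in all 4 libraries. Its log2 fold was 1.77 ± 0.26 (SE), with an adjusted p of 2.6e-07 by edgeR's test.

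Hoxb5 had a log2 fold of 1.95 ± 0.62 (adjusted p = 0.017) and Hoxb3 of 1.98 ± 0.71 (adjusted p = 0.036) by edgeR's test. They rested on 33 and 32 counts in cluster 7, against 7.08 and 6.64 at the rate of hepatocyte-like nuclei. Hoxb5 was higher in 4 of 4 libraries, and Hoxb3 in the 3 where it had a peak. With the library of 0, 48 or 72 h left out, Hoxa3 was the only member called higher by edgeR's test, with a log2 fold of 1.34, 1.86 or 1.98. Without the library of 96 h, 4 members were called higher and 2 lower. The summed level of the 10 endothelial markers was 514, 818, 1104 and 226 CPM in cluster 7 at 0, 48, 72 and 96 h. In the hepatocyte-like clusters other than cluster 3 it was 237, 274, 326 and 218 CPM. At 96 h, 4 of the 10 were at 0 in cluster 7. Their part in the result was not tested.

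Most of the Hoxa3 difference lay in 1 region. chr6:52169953-52172954, over an exon near the 3′ end of the gene, held 152 counts in cluster 7, against 5.56 at the rate of hepatocyte-like nuclei. Its level was 109, 80.9 and 63.8 CPM at 0, 48 and 72 h in cluster 7, and 0.689, 5.05 and 8.04 CPM in hepatocyte-like nuclei, with no peak at 96 h. Within 1000 bp of the start, by contrast, the log2 fold of Hoxa3 was -0.16 (adjusted p = 0.9 by edgeR's test). This region was picked for its difference and is given without a test.

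Other Hox regions were also picked for at least 20 counts in cluster 7, a level at least 2-fold above the hepatocyte-like rate and a higher value in at least 3 libraries. They included regions over exons of Hoxb5 (4.89-fold), Hoxa5 (4.88-fold), Hoxb8 (3.09-fold) and Hoxa10 (2.59-fold). No region of Hoxc or Hoxd met these limits.

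Cluster 8 lay at 172 (134 to 217), 453 (369 to 551), 432 (313 to 583) and 369 (148 to 760) CPM over all members. The mean log2 ratio to hepatocyte-like nuclei was 0.50 ± 0.55 (SD, n = 4 libraries), higher in 3 of 4 (two-sided exact sign-flip permutation test, p = 0.250). The summed level of the myeloid list was 412, 1066, 890 and 263 CPM in cluster 8, against 167, 228, 203 and 102 CPM in the hepatocyte-like clusters other than cluster 3. That of the endothelial list was 353, 514, 639 and 316 CPM, against 237, 274, 326 and 218 CPM, and the part of either was not tested. By edgeR's quasi-likelihood test 0 of 27 members were higher and 2 were lower, against 4.76% and 14.0% of 16424 genes. DESeq2 called 0 higher and 1 lower, and the unadjusted p of edgeR's test was under 0.05 for 3 members. Hoxd11 and Hoxd13 had 0 counts in cluster 8 in all 4 libraries, where the hepatocyte-like rate would have given 14.4 and 8.39. Their adjusted p was 0.00079 and 0.01 by edgeR's test, and no fold is given, since both ends of a fragment count and these are few fragments. In hepatocyte-like nuclei Hoxd11 lay at 3.88, 14.6, 21.0 and 12.4 CPM. Without the library of 48 h 0 members were called lower, and without that of 0 or of 72 h 1 was.

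Cluster 3 was the one hepatocyte-like cluster with at least 20 nuclei in 3 libraries (779, 993 and 164 at 48, 72 and 96 h), and its comparison with the other hepatocyte-like clusters was added after the data had been seen. Its Hox level was 411, 513 and 200 CPM, against 354, 416 and 152 CPM. The mean log2 ratio was 0.30 ± 0.09 (SD, n = 3 libraries), higher in 3 of 3 (two-sided exact sign-flip permutation test, p = 0.250, the smallest possible). It was 0.79 ± 0.42 for Hoxc, 0.49 ± 0.10 for Hoxb, 0.28 ± 0.06 for Hoxa and -0.04 ± 0.12 for Hoxd. Hoxa, Hoxb and Hoxc were higher in 3 of 3 libraries, whereas Hoxd was higher in 1.

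By edgeR's quasi-likelihood test, 6 of 37 members were higher in cluster 3 and 0 were lower, against 18.4% and 16.1% of 16948 genes. The share of higher members, 6 of 37, was thus near the background. DESeq2 called 2 of 27 higher and 0 lower, against 1949 and 1767 of 15633 genes. With edgeR, 3 were higher with no filter, at a minimum of 3000 counts, without the 5% deepest nuclei or within 1000 bp of the TSS. Hoxc5, which spans several Hoxc genes, lay at 74.4, 89.0 and 49.9 CPM in cluster 3 and 50.0, 59.5 and 20.3 CPM in the other clusters at 48, 72 and 96 h. Its log2 fold was 0.67 ± 0.12 (SE), with an adjusted p of 0.00013 by edgeR's test. Hoxc10 lay at 15.1, 16.3 and 13.1 CPM against 8.64, 9.20 and 6.38 CPM, with a log2 fold of 0.83 ± 0.20 and an adjusted p of 0.002 by edgeR's test. Hoxb7 had 0.79 ± 0.23 (adjusted p = 0.0094 by edgeR's test), and Hoxa5, Hoxc4 and Hoxc9 had 0.65, 0.61 and 0.49. Without the library block 0 members were called, as were 0 of all genes, and 1 member had an unadjusted p under 0.05. Without the library of 48 or 72 h 1 member was called higher, and without that of 96 h 10 were. Hepatocyte markers were lower in cluster 3, at a summed 3484 CPM against 4549 CPM at 72 h and 4783 against 6030 CPM at 96 h, and cholangiocyte markers higher, at 131, 132 and 156 CPM against 96.2, 94.6 and 97.2 CPM at 48, 72 and 96 h. The part of either was not tested.

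**Figure D5:**
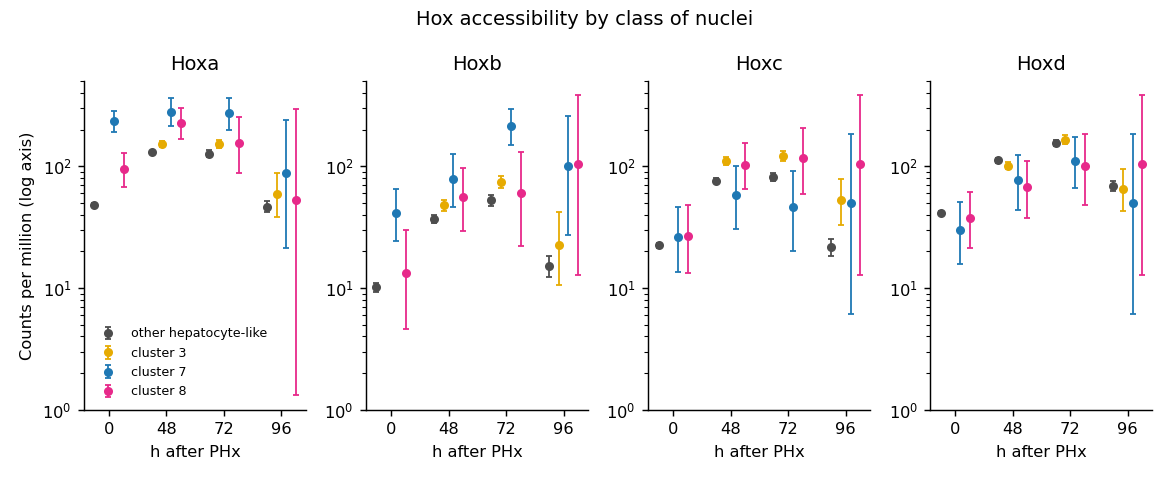
CPM (log axis) of each Hox cluster in cluster 3, cluster 7, cluster 8 and the other hepatocyte-like nuclei by time point, 1 point per library and class, with exact 95% Poisson intervals. Cluster 3 is not drawn at 0 h, where it had 2 nuclei. Cluster 7 lies above the hepatocyte-like nuclei in Hoxa and Hoxb at all 4 times. It lies below them in Hoxd, where its mean log2 ratio is -0.49 and its intervals include their level.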

How the data were processed

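Counts of cut sites per peak and barcode were used as the authors deposited them, in 4 filtered matrices with the peak list of each library. Per the file headers and the submitters' processing notes they were made with Cell Ranger ATAC 1.1.0 on mm10, with peaks called in each library separately, and 87.3% to 88.6% of values were even. Whether animals were pooled at 72 and 96 h was not stated in the labels or methods used.

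Members and gene lists were chosen with earlier results of these data known. Barcodes with at least 1000 counts were kept, and no doublet caller was run. Peaks over the gene body plus 2000 bp upstream were summed per gene and scaled to 1000000 counts. A gene was compared over time with at least 20 counts in 1 of the 2 libraries, and a 2-fold difference was called. Named genes were the 2 highest and the lowest per kb at 0 h in each cluster, the 3 largest and 3 smallest ratios at 48 and 96 h, and up to 5 called genes per class comparison and direction.

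Nuclei were clustered on 47248 regions shared by all libraries, leaving out chromosomes 2, 6, 11 and 15 (30 components and 30 neighbours in scikit-learn 1.9.0, leidenalg 0.10.2, resolution 0.5, Python 3.11.15). A cluster was hepatocyte-like if the mean log2 level of 10 markers (pseudocount 5 CPM), relative to the mean over clusters, was above -1 and its median depth above 0.333 of that of its library, which left cluster 5 (1317 shallow nuclei) unnamed. Counts summed by class and library were tested with edgeR 4.0.16 (quasi-likelihood, library as a block, R 4.3.3), with Benjamini-Hochberg adjustment over all genes at 0.05. DESeq2 1.42.0 was an alternative. The tests were tested on simulated data. Some members and regions are not reported here.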

Additional observations from a re-analysis of the deposited data

Results flagged for a closer look

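Peaks inside the Hox clusters but over no Hox gene or its upstream 2000 bp were outside the comparisons. They held 62.1 CPM at 48 h, 83.4 CPM at 72 h and 33.7 CPM at 96 h, each above the 26.0 CPM (24.8 to 27.2) of 0 h. Such peaks numbered 13, 28, 30 and 10 at 0, 48, 72 and 96 h.

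Barcodes with fewer than 1000 counts, which were left out, numbered 668, 1081, 1444 and 1675 at 0, 48, 72 and 96 h. Their Hox level was 378 CPM (309 to 458) at 48 h and 401 CPM (342 to 467) at 72 h, above the 166 CPM (113 to 237) of 0 h, and 175 CPM at 96 h.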

How the results depend on the processing

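No paired analysis was possible because each time point had 1 library, so there was no replicate block over time. The cause of each shift below was not tested. The log2 ratio of all Hox genes to 0 h was 1.54, 1.83 and 0.31 at 48, 72 and 96 h. It stayed above 0 at 48 and 72 h under every alternative run. At 48 h it was 1.59 in hepatocyte-like nuclei only, 1.62 scaled by regions with a peak in every library, 1.72 scaled by promoter peaks, 0.97 in regions with a peak in every library, 0.21 in regions of near-equal length, 1.25 with binarised counts and 1.48 within 1000 bp of the TSS. At 72 h it was 1.89 and 2.08 under those 2 scalings, 1.29 in regions with a peak in every library, 0.58 in regions of near-equal length and 1.38 with binarised counts. At 96 h it was 0.20 scaled by shared regions, 0.49 in shared regions, 2.05 in the region of near-equal length, 0.13 within 1000 bp of the TSS and -0.07 with binarised counts. The Hoxc ratio at 96 h (0.05) turned to -0.02 without barcodes found in another library, -0.06 scaled by shared regions and -0.36 with binarised counts. The Hoxa ratio at 96 h (-0.08) turned to 0.05 in shared regions and 2.05 in the region of near-equal length, and the Hoxc ratio at 48 h (1.87) to -0.17 in regions of near-equal length.

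The number of genes at least 2-fold higher was 6, 13 and 21 at 48, 72 and 96 h per covered kb, against 3.39%, 5.75% and 68.7% of all genes. The 6 and 13 include the 5 and 6 members without a peak at 0 h. At 96 h it was 4 scaled by shared regions (5.36% of all genes) and 4 with binarised counts (4.72%). With at least 100 counts, 5 were lower (12.4%). With a peak within 500 bp, 18 starts at 0 h and 13 at 96 h were counted, against 63.0% and 58.7% of all genes. Genes higher in cluster 7 numbered 6 with DESeq2, 1 without the library block, 1 at a minimum of 3000 counts, 0 within 1000 bp of the TSS (Hoxa3 -0.16), and 1 to 4 with 1 library left out. Genes lower there numbered 2 with binarised counts, 1 without shared barcodes and 0 to 2 with 1 library left out. Of all genes, 1059 of 16471 were called higher in cluster 7 in the main run and 994 with DESeq2. The number was 398 without the block, 301 of 16856 at 3000 counts and 426 of 13965 within 1000 bp of the TSS. With 1 library left out it ranged from 402 to 1302. Lower were 2412 in the main run, 2621 of 16307 with binarised counts and 2407 of 16442 without shared barcodes. In cluster 8, 1 was higher with binarised counts, and 1 was lower with DESeq2, 1 within 1000 bp of the TSS and 0 to 2 with 1 library left out. Of all genes, 782 of 16424 were higher there in the main run and 1576 of 16338 with binarised counts. Lower were 2305 in the main run, 1967 with DESeq2, 1549 of 13899 within 1000 bp of the TSS and 1062 to 2629 with 1 library left out. In cluster 3, the number higher was 2 with DESeq2, 3 with no filter, 3 at 3000 counts, 3 without the 5% deepest nuclei, 3 within 1000 bp of the TSS, 12 with binarised counts, 0 without the block and 1 to 10 with 1 library left out. The number lower was 1 with binarised counts and 0 to 1 with 1 library left out. Of all genes, 3118 of 16948 were higher in cluster 3 in the main run. The number was 1949 of 15633 with DESeq2, 2650 of 17755 with no filter, 2452 of 16926 at 3000 counts and 2331 of 16891 without the deepest nuclei. It was 1775 of 14506 within 1000 bp of the TSS, 3785 of 16812 with binarised counts and 940 to 3730 with 1 library left out. Lower were 2728 in the main run and 3565 with binarised counts. The mean Hoxc ratio of cluster 7 (-0.05) ranged from -0.44 to 0.27 with 1 library left out and was 0.11 without 48 h. That of cluster 8 turned to -0.02 at 3000 counts. The Hoxd ratio of cluster 3 (-0.04) turned to 0.16 within 1000 bp of the TSS and ranged from -0.11 to 0.01 with 1 library left out.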
